A study of Mus musculus with 8 samples.

Results

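Hox genes encode homeodomain transcription factors that give cells their position along the body axis, and they lie in 4 clusters, HoxA to HoxD, whose genes are numbered by paralog group from 1 at the anterior end to 13 at the posterior end. Genes of low number are used toward the head and genes of high number toward the tail, limbs and genital tract. Adult mesenchymal and endothelial cells keep much of the Hox pattern of the region they arose in, and in the lung the group 5 genes, foremost Hoxa5, act in the mesenchyme. All rows of the deposited count table whose symbol was Hoxa, Hoxb, Hoxc or Hoxd followed by a number were taken, which gave 39 of 27179 genes and all 4 clusters.

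The 8 libraries were bulk RNA-seq of cells sorted from lungs of C57BL/6 mice that carried the Eml4-Alk translocation, made in lung cells by adenoviral delivery of Cas9 and guides, so every library came from a tumor-bearing lung and there was no healthy group. The mice were 18 to 22 weeks of age and 11 to 12 weeks past tumor induction, and all received 4.5 nmol of QZ1-(PEG2K), a quenched Cy5 probe that fluoresces once proteases cut it, 2 h before the lungs were taken. Live CD45-/CD11b- cells, which gating leaves after blood cells are removed, were sorted on Cy5 signal into QZ1-hi (4 libraries) and QZ1-lo (4 libraries), with at least 100000 cells a fraction and no direct assessment of purity. The labels call the 4 libraries of each group biological replicates, and do not state which QZ1-hi and QZ1-lo fractions came from the same mouse. Replicate numbers below only name libraries, in the order in which each group is listed, and pair none. The question was which genes differ between cells with high and low probe signal. By the authors' design the tag freed by cutting can bind nearby cells, so the signal marks protease activity on or near a cell.

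Total counts were 18380918 to 26847938 a library, of which mitochondrial genes and ribosomal RNA took 43.7% to 65.6% in QZ1-hi and 34.0% to 53.2% in QZ1-lo. A count of 0 in a library allowed up to 3 counts, or 0.0894 to 0.179 CPM (counts per 1000000, scaled by the trimmed mean of M values), and this floor covers counting error only. The lung transcription factor Nkx2-1 (39.1 to 118 CPM) and the surfactant gene Sftpc (1912 to 5613 CPM) were present in every library, and so was Ptprc (71.3 to 222 CPM), which encodes the CD45 that the sort gated out.

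In these lung cells Hox transcripts came from the anterior and middle genes of the clusters and were higher in QZ1-hi. The summed level of the 39 genes was 38.0, 37.1, 42.0 and 29.7 CPM in QZ1-hi replicates 1 to 4 and 2.53, 8.94, 6.58 and 3.35 CPM in QZ1-lo replicates 1 to 4. Every QZ1-hi library lay above every QZ1-lo library, and the means were 36.7 ± 5.15 and 5.35 ± 2.96 CPM (SD, n = 4), a ratio of 6.85. All 39 genes together had 3443 counts, and Hoxa5 alone had 26.9% of them.

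The genes fell into classes by level. Counts were 0 in all 8 libraries for 14 genes, which were Hoxa10, Hoxa11, Hoxa13, Hoxb1, Hoxb13, Hoxc9, Hoxc10, Hoxc11, Hoxc12, Hoxd1, Hoxd10, Hoxd11, Hoxd12 and Hoxd13. Another 4, Hoxa9, Hoxb9, Hoxc13 and Hoxd9, never passed 3 counts in a library. A further 12 passed 3 counts somewhere but were too low for the test, among them Hoxa6, Hoxb5, Hoxb6, Hoxb7, Hoxb8, Hoxc5, Hoxc6, Hoxc8, Hoxd3, Hoxd4 and Hoxd8. The remaining 9 were tested: Hoxa2, Hoxa3, Hoxa4, Hoxa5, Hoxa7, Hoxb2, Hoxb3, Hoxb4 and Hoxc4.

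The split followed position. Groups 9 to 13 hold 16 genes, 12 of them at 0, and had 6 counts in all, which is 0.174% of the Hox counts. Groups 1 to 8 hold 23 genes, and 21 of them passed 3 counts in at least 1 library. No gene numbered above 8 passed 3 counts in any library of either group.

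**Figure D1:**
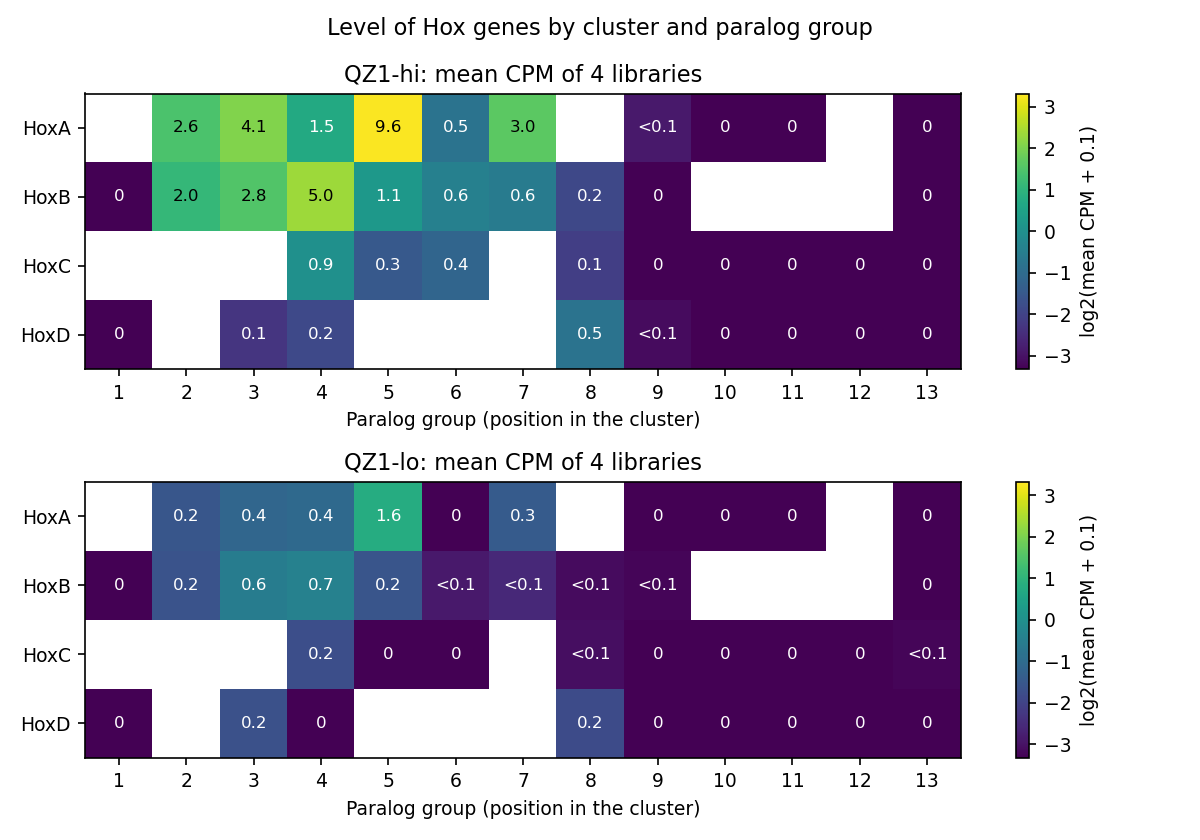
Mean CPM of the Hox genes shown in QZ1-hi (upper grid) and QZ1-lo (lower grid), with clusters as rows, paralog groups as columns, color on a log2 scale of mean CPM + 0.1 and the mean written in each cell (white, no gene or not shown). Levels were concentrated in groups 2 to 5 of HoxA and HoxB, with Hoxa7 also at 3.03 CPM in QZ1-hi, and stopped after group 8. Hoxa5 was the highest cell in both grids at 9.59 and 1.62 CPM.

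Clusters contributed unequally. HoxA, on chromosome 6 (52155367 to 52260880, minus strand, GRCm38.p6), gave 59.1% of the Hox counts from 11 genes, and HoxB, on chromosome 11 (96194316 to 96368254, plus strand), gave 33.5% from 10 genes. HoxC on chromosome 15 (102921131 to 103036856, plus strand) gave 4.44%, and HoxD on chromosome 2 (74668225 to 74765142, plus strand) gave 2.96%, from 9 genes each. These shares pool the counts of all 8 libraries. By library HoxA supplied 45.9% to 65.5% of the Hox level in CPM. HoxB was above HoxA only in QZ1-lo replicate 1 (49.4% against 45.9%). Summed HoxA was 22.0 ± 3.10 CPM in QZ1-hi and 2.89 ± 1.60 CPM in QZ1-lo, and summed HoxB was 12.2 ± 3.84 and 1.84 ± 0.913 CPM (SD, n = 4). The groups did not overlap for HoxA, HoxB or HoxC, and they overlapped for HoxD.

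Vertebrate Hox promoters are rich in CpG, the dinucleotide that carries DNA methylation and at which Polycomb complexes are recruited. The sequences below are the 250 bases before the annotated start of the 2 members whose call held in every alternative processing in which they could be tested (Hoxa5, Hoxb4) and of 2 posterior genes at 0 counts (Hoxa13, Hoxd13), from RefSeq on GRCm38.p6, 5′ to 3′ on the strand of the gene, with every CpG in capitals. Hoxa5 is at chr6:52204588-52204837 (minus), Hoxb4 at chr11:96318017-96318266 (plus), Hoxa13 at chr6:52260881-52261130 (minus) and Hoxd13 at chr2:74667975-74668224 (plus).
Hoxa5: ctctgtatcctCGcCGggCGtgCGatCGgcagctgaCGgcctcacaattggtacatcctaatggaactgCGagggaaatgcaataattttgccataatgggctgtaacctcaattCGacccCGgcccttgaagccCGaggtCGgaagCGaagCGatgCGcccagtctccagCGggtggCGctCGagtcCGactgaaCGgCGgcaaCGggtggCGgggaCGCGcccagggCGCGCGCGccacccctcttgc
Hoxb4: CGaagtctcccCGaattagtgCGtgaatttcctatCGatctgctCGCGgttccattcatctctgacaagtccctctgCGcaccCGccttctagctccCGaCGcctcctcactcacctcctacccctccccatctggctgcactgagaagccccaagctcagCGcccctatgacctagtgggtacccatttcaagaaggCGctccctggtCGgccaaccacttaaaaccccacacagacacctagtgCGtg
Hoxa13: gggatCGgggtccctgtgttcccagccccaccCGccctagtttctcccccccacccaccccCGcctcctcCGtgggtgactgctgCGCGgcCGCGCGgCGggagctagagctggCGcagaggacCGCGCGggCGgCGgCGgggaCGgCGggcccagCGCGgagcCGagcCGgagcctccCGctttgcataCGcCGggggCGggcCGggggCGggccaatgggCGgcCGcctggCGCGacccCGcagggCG
Hoxd13: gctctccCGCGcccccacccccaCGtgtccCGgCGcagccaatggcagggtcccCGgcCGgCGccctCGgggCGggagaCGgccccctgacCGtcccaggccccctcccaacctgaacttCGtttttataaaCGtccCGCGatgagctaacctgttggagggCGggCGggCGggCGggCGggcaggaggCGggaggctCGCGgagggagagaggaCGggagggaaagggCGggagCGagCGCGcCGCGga

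These windows held 28 CpG for Hoxa5, 14 for Hoxb4, 35 for Hoxa13 and 31 for Hoxd13. Among all 32851 promoter windows of the table the median was 6, and 92.4% of windows had fewer CpG than Hoxa5, 70.6% fewer than Hoxb4, 97.0% fewer than Hoxa13 and 94.8% fewer than Hoxd13. The table held a window for 22 of the 39 members (24 windows). Their median was 12.5 CpG, with 12 (3 to 28) in groups 1 to 8 and 13 (2 to 35) in groups 9 to 13. The Hoxa13 and Hoxd13 windows printed were the most CpG-rich of groups 9 to 13, where Hoxd12 had 10 and a window of Hoxd11 had 2. No methylation or chromatin was measured here.

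Of the 9 tested genes, 5 were higher in QZ1-hi by edgeR's quasi-likelihood test at an adjusted p under 0.05 (Hoxa3, Hoxa5, Hoxa7, Hoxb3 and Hoxb4) and 0 were lower. Over all 15583 genes tested, 9.88% were called higher and 8.21% lower. At an unadjusted p under 0.05, 7 of the 9 were higher and 0 lower, beside 2403 and 2106 of all 15583. DESeq2 called 5 higher (Hoxa2 in place of Hoxa3) and 0 lower, beside 1812 and 1606 of all genes tested. With limma-voom 8 were higher and 0 lower, beside 1697 and 1289. Groups did not overlap for 8 of the 9, QZ1-hi being above, against 11.9% of all genes tested. Only Hoxa5 reached 10 counts in every library, so the other 8 could enter the test mainly through their QZ1-hi counts, and the counts of tested genes are a description of the genes that passed and not of all 39.

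Hoxa5 (chromosome 6, 52201754 to 52204587), the Hox gene most needed for lung and airway formation, had the highest level. Its counts were 246, 178, 238 and 91 in QZ1-hi and 30, 52, 60 and 32 in QZ1-lo, which is 10.4, 8.79, 13.8 and 5.42 CPM against 0.894, 2.11, 2.17 and 1.31 CPM. The lowest QZ1-hi library was above the highest QZ1-lo library by more than the whole QZ1-lo range. The log2 fold change was 2.57 ± 0.38 (SE), with an adjusted p of 0.000972 by edgeR, and the two-sided exact permutation p was 0.0286, the smallest that 4 against 4 allows. Its call held in 16 of 16 alternative settings, between 2.19 and 2.79 on the log2 scale. Per length of exon it was the highest Hox gene at 5.11 ± 1.85 RPKM in QZ1-hi and 0.864 ± 0.333 RPKM in QZ1-lo (SD, n = 4).

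Hoxb4 (chromosome 11, 96318267 to 96321638), best known for expanding blood stem cells when overexpressed, was the next in level. It had 7.07, 2.27, 7.11 and 3.39 CPM in QZ1-hi and 0.506, 0.691, 1.09 and 0.327 CPM in QZ1-lo. All QZ1-hi libraries were above all QZ1-lo libraries, with QZ1-hi replicate 2 the nearest. The log2 fold change was 2.92 ± 0.52 (SE), edgeR adjusted p 0.00282, and it was called in 15 of 15 alternatives in which it could be tested.

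The group 3 genes act in the pharyngeal arches, where Hoxa3 is required for the thymus and parathyroids. Hoxa3 was at 65, 90, 83 and 74 counts in QZ1-hi (2.75, 4.44, 4.79 and 4.41 CPM) and at 4, 32, 0 and 0 counts in QZ1-lo (0.119, 1.30, 0 and 0 CPM). QZ1-lo replicate 2 held most of the QZ1-lo counts and still lay below every QZ1-hi library. The log2 fold change was 3.54 ± 1.07 (SE), edgeR adjusted p 0.0411, and the call held in 6 of 15 alternatives, with an adjusted p from 0.00191 to 0.0975 over them. It was lost with DESeq2 (adjusted p 0.0776), with robust shrinkage in edgeR (0.0586), and without any single QZ1-hi library and without QZ1-lo replicate 1, 3 or 4 (adjusted p 0.0531 to 0.0975 in those edgeR fits). Hoxb3 had 2.54, 2.42, 3.29 and 2.86 CPM in QZ1-hi and 0.268, 0.976, 1.01 and 0.123 CPM in QZ1-lo, again without overlap. The log2 fold change was 2.22 ± 0.64 (SE), edgeR adjusted p 0.0337. That call held in 8 of 15 alternatives and was lost with scaling by library size only (edgeR adjusted p 0.0643), without any single QZ1-hi library and without QZ1-lo replicate 1 or 4 (0.0505 to 0.0831).

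Hoxa7, a middle gene of the cluster, was the most posterior gene called. It had 71, 112, 19 and 42 counts in QZ1-hi and 0, 13, 0 and 14 counts in QZ1-lo, or 3.01, 5.53, 1.10 and 2.50 CPM against 0, 0.528, 0 and 0.573 CPM. The groups did not overlap, and QZ1-hi replicate 3 was nearest to QZ1-lo. The log2 fold change was 3.48 ± 1.07 (SE), edgeR adjusted p 0.0443. It was called in 9 of 15 alternatives and lost without QZ1-hi replicate 1, 2 or 4 or QZ1-lo replicate 1, 2 or 3 (adjusted p 0.0573 to 0.131).

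The other 4 tested genes did not pass in edgeR, though 3 of them passed in some alternatives. Hoxa2, which sets the identity of the second pharyngeal arch, had 73, 36, 36 and 60 counts in QZ1-hi and 1, 0, 26 and 0 counts in QZ1-lo. On the log2 scale the difference was 3.40 ± 1.15 (SE), edgeR adjusted p 0.0661, and without QZ1-lo replicate 3, which held 26 of the 27 QZ1-lo counts, the adjusted p was 0.000598. Hoxa2 also passed with DESeq2 (adjusted p 0.0109), limma-voom (0.00256) and edgeR scaled by library size only (0.0428). Hoxb2, a hindbrain gene, had 38, 36, 40 and 41 counts in QZ1-hi and 0, 22, 0 and 0 counts in QZ1-lo. The change on the log2 scale was 3.20 ± 1.26 (SE), edgeR adjusted p 0.113, 0.00239 without QZ1-lo replicate 2, the library with all its QZ1-lo counts, and 0.0104 with limma-voom. Hoxa4 had 30, 37, 24 and 28 counts in QZ1-hi and 3, 8, 31 and 0 counts in QZ1-lo. In CPM its groups did not overlap (1.27 to 1.83 and 0 to 1.12), the log2 fold change was 1.99 ± 0.97 (SE), edgeR adjusted p 0.204, 0.0319 without QZ1-lo replicate 3 and 0.0278 with limma-voom. Of 15 alternatives Hoxa2 passed in 4, and Hoxb2 and Hoxa4 in 2 each. Without QZ1-lo replicate 1 their edgeR adjusted p was 0.134, 0.189 and 0.362. Each pass without a QZ1-lo library left out the library with the most QZ1-lo counts of that gene. That lowers QZ1-lo by construction, so nothing is concluded from those passes. Hoxc4, the most anterior gene of its cluster, overlapped between groups, at 0.298 to 1.73 CPM in QZ1-hi and 0 to 0.532 CPM in QZ1-lo. The log2 fold change of 2.16 ± 1.16 (SE) had an edgeR adjusted p of 0.255 and passed in no alternative.

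**Figure D2:**
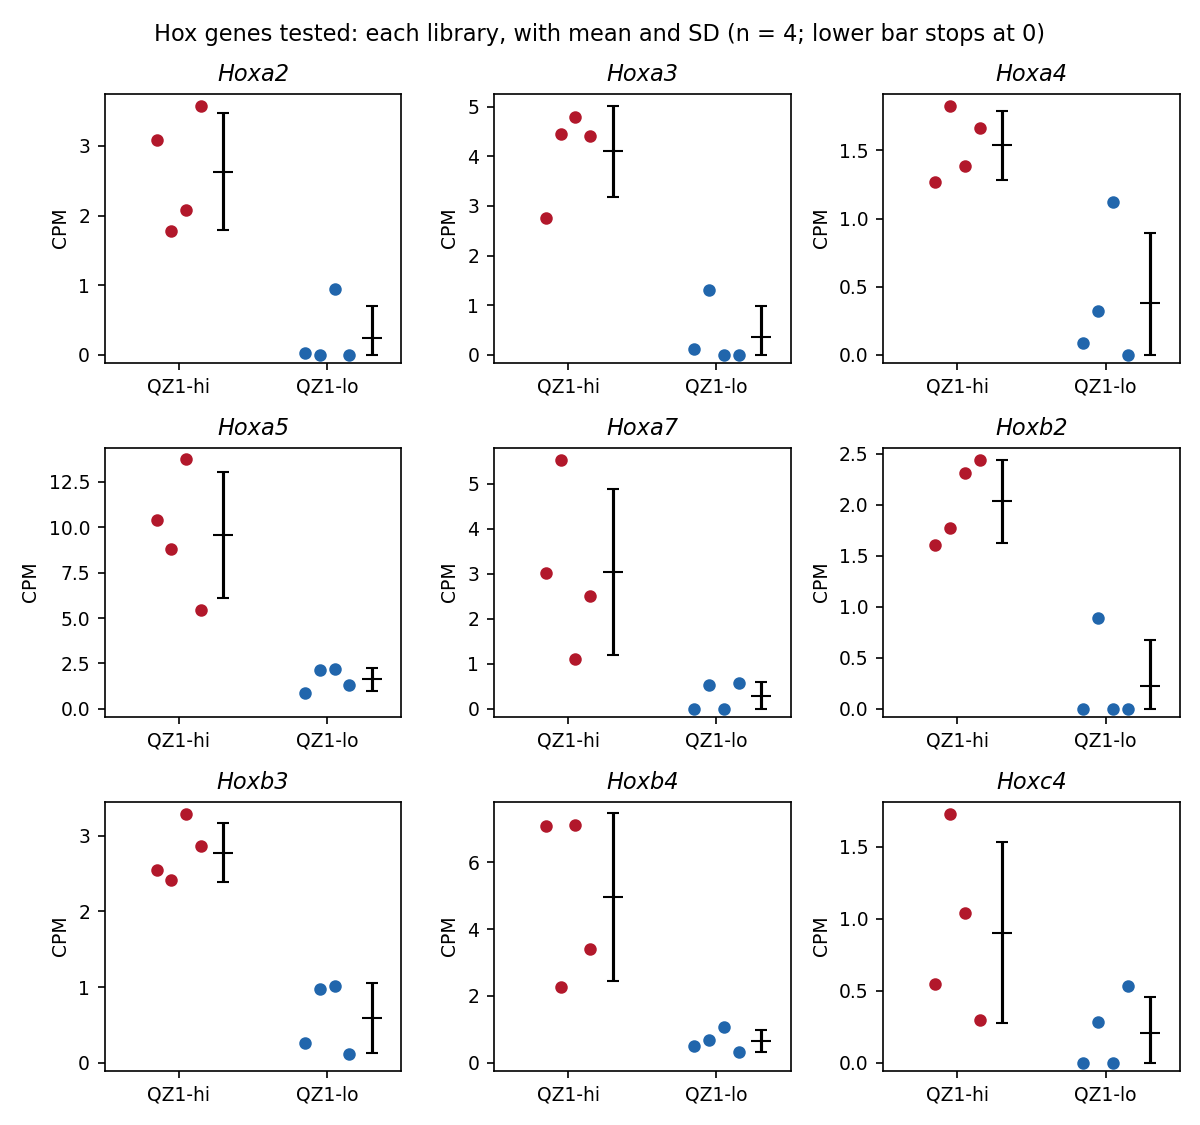
CPM of the 9 tested Hox genes in each of the 4 QZ1-hi (red) and 4 QZ1-lo (blue) libraries on linear axes, with the mean and SD beside the points and the lower bar stopped at 0. All but Hoxc4 had every QZ1-hi point above every QZ1-lo point, and in Hoxa2, Hoxa3 and Hoxb2 a single QZ1-lo library stood above the other 3.

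The tested genes differed in how much they varied between libraries of a group. The biological coefficient of variation that edgeR fitted was 0.359 for Hoxa5, 0.475 for Hoxb4 and 0.562 for Hoxb3, and from 0.836 to 1.18 for the other 6. The median over all genes tested was 0.266, and 67.2% of genes varied less than Hoxa5 while 96.2% varied less than Hoxa4. That coefficient is a single value per gene for both groups, and within QZ1-hi the order was different. Relative to their means, Hoxb2 (2.03 ± 0.404 CPM), Hoxa3 (4.10 ± 0.915) and Hoxa4 (1.54 ± 0.255) varied less there than Hoxa5 (9.59 ± 3.47) and Hoxb4 (4.96 ± 2.50). Hoxa7 (3.03 ± 1.85) and Hoxc4 (0.904 ± 0.630) varied more (SD, n = 4). In QZ1-lo, Hoxa2, Hoxa3, Hoxb2 and Hoxd3 each had 20 or more counts in 1 library and 4 or fewer in each of the other 3.

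Ordered per length of exon in QZ1-hi, Hoxa5 (5.11 RPKM, 2.89 to 7.33 over libraries) was followed by Hoxb4 (1.93, 0.885 to 2.77), Hoxa2 (1.48), Hoxa7 (1.05), Hoxa4 (0.965), Hoxa3 (0.682), Hoxb3 (0.653), Hoxb2 (0.583) and Hoxc4 (0.352). Only the step from Hoxa5 to Hoxb4 was free of overlap between libraries. In QZ1-lo Hoxa5 (0.864 RPKM, 0.476 to 1.16) again lay above Hoxb4 (0.254, 0.127 to 0.423) without overlap, and every later neighbor overlapped with the next. The long transcripts of Hoxa3 and Hoxb3 lower their values on this scale relative to CPM.

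Paralogs of group 5, which act together in lung branching, were unequal. Hoxb5 had 23, 6, 29 and 22 counts in QZ1-hi and 4, 8, 4 and 9 counts in QZ1-lo, so it was above 3 counts in all 8 libraries but too low for the fit. QZ1-hi replicate 2 (0.296 CPM) lay below QZ1-lo replicates 2 and 4 (0.325 and 0.368 CPM), and the exact permutation p was 0.0857 (two-sided). Hoxc5 had 4, 2, 0 and 13 counts in QZ1-hi and 0 in every QZ1-lo library, so QZ1-hi replicate 4 held most of its counts and the groups overlapped at 0.

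Among the other untested genes several rested on 1 library. Hoxa6, whose gene lies next to Hoxa5, had 40 counts in QZ1-hi replicate 1, 4 in replicate 3 and 0 in the other 6 libraries. Hoxc6 had 24 of its 28 counts in QZ1-hi replicate 2 and 0 in QZ1-lo. Hoxb6 had 11, 11, 26 and 1 counts in QZ1-hi and 5, 0, 0 and 0 in QZ1-lo, with overlap and an exact permutation p of 0.0571. Hoxb7, Hoxb8, Hoxc8 and Hoxd4 were at 31 counts or fewer in every library and overlapped between groups. With no filter on low counts edgeR tested 25 Hox genes and called none of the untested 12.

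HoxD departed from the other clusters. Hoxd8 had 2, 30, 6 and 0 counts in QZ1-hi and 3, 16, 0 and 0 in QZ1-lo, and Hoxd3 had 7, 0, 1 and 1 in QZ1-hi and 0, 20, 1 and 0 in QZ1-lo. Replicate 2 was the highest library for Hoxd8 in both groups, and Hoxd3 was the only one of the 12 untested genes whose mean was higher in QZ1-lo (0.212 against 0.103 CPM, exact permutation p 0.971). Summed HoxD was 0.466, 1.97, 0.462 and 0.179 CPM in QZ1-hi and 0.0894, 1.46, 0.0362 and 0 CPM in QZ1-lo, with means of 0.770 ± 0.814 and 0.397 ± 0.712 CPM (SD, n = 4). HoxD supplied 5.33% of the Hox level in QZ1-hi replicate 2 and 16.4% in QZ1-lo replicate 2, against 0% to 3.53% in the other 6 libraries. Hoxd3 and Hoxd4 share exons on the same strand (62.3% and 52.3% of their exon bases overlap each other or Gm28230), so their counts are uncertain.

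Markers of several cell types moved with the Hox level, in a comparison where edgeR called 9.88% of all genes tested higher and 8.21% lower. The endothelial list (6 of 6 called higher) summed to 1074 to 2465 CPM in QZ1-hi and 111 to 349 CPM in QZ1-lo, and the fibroblast list (4 of 5 higher) to 900 to 1778 and 26.2 to 217 CPM. The mesothelial list (3 of 3 higher) summed to 29.6 to 208 and 5.44 to 27.5 CPM, the pericyte list (3 of 5 higher) to 59.5 to 91.0 and 7.28 to 20.1 CPM, and the smooth muscle list (2 of 4 higher, Cnn1 lower) to 24.9 to 38.8 and 10.3 to 21.5 CPM. The epithelial list held 3 genes that were lower (Epcam, Cdh1, Nkx2-1) and 1 that was higher (Sftpc), with sums of 4641 to 8670 and 3699 to 5942 CPM. Most of these sums came from Sftpc and Sftpb, with means of 4060.5 and 2003 CPM in QZ1-hi and 2369 and 1525 CPM in QZ1-lo. The ciliated list (3 of 3 lower) summed to 20.2 to 53.9 and 100.3 to 210 CPM. The immune list, which also holds the hemoglobin gene Hbb-bs, summed to 123 to 360 and 181 to 445 CPM. By edgeR 0 of its 4 tested genes were called (1, Hbb-bs, lower at an unadjusted p under 0.05), and 0 by DESeq2 and limma-voom. Hbb-bs was at 10.7 to 81.6 CPM in QZ1-hi and 16.9 to 234 CPM in QZ1-lo. Ptprc, of the same list, had a log2 fold change of 0.06 (edgeR adjusted p 0.929). No listed marker was at 0 in all libraries, Cnn1 was at 0 in 3 QZ1-hi libraries, and Tcf21 was at 0 in QZ1-lo replicates 1 and 4. In sorted bulk RNA fewer cells of a type and less RNA per cell cannot be told apart.

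Per 1000 CPM of fibroblast markers the summed Hox level was 38.1, 21.7, 23.6 and 32.9 CPM in QZ1-hi and 28.1, 41.3, 31.1 and 128 CPM in QZ1-lo. Per 1000 CPM of endothelial markers it was 21.3, 34.4, 17.0 and 27.6 CPM in QZ1-hi and 21.6, 59.7, 18.8 and 30.2 CPM in QZ1-lo. On both scales the groups overlapped, whereas the Hox level itself did not. The part of cell makeup in the Hox differences was not tested.

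Clusters also ordered the QZ1-hi libraries differently. HoxB was 14.1, 7.80, 16.5 and 10.5 CPM in QZ1-hi replicates 1 to 4, where the endothelial list was 1786, 1078, 2465 and 1074 CPM, and replicates 3 and 1 led in both. HoxA varied less, at 22.3, 24.3, 24.0 and 17.6 CPM. HoxC (1.19, 3.01, 1.04 and 1.37 CPM) and HoxD were highest in replicate 2, where the mesothelial list was 208 CPM against 29.6 to 55.6 CPM in the other 3. In QZ1-lo the highest HoxD and mesothelial sums (1.46 and 27.5 CPM) were also in 1 library, replicate 2. The other orders did not recur in QZ1-lo. HoxC there was highest in replicate 4 (0.532 CPM), where the mesothelial list was lowest (5.44 CPM). HoxB there was highest in replicate 2 (2.93 CPM) and the endothelial list in replicate 3 (349 CPM). The fibroblast list was 998, 1705, 1778 and 900 CPM in QZ1-hi replicates 1 to 4. These orders rest on 4 libraries a group, and their relation was not tested.

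**Figure D3:**
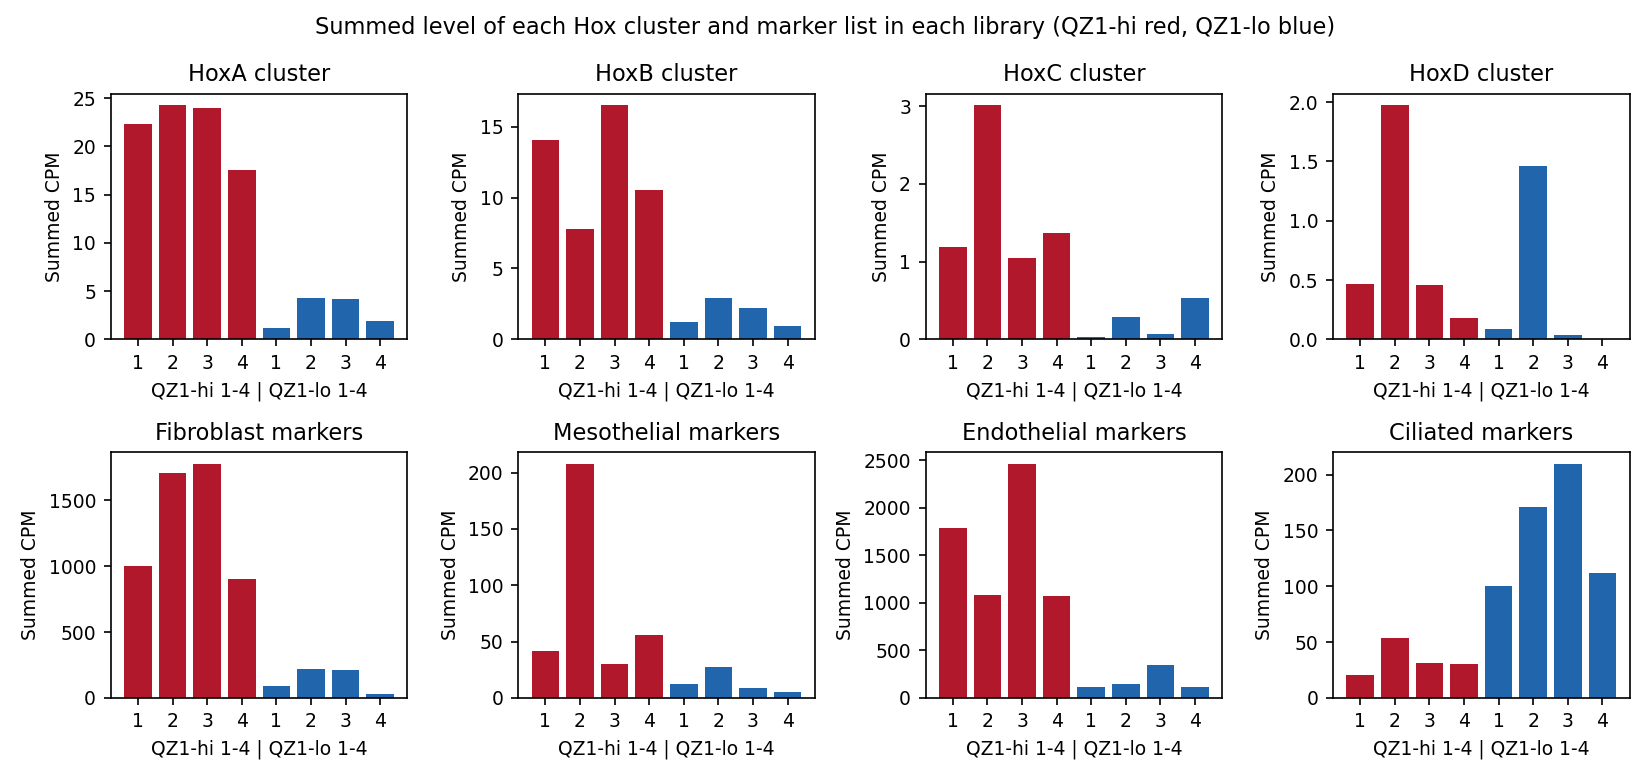
Summed CPM of each Hox cluster (upper row) and of 4 marker lists (lower row) in the 4 QZ1-hi (red) and 4 QZ1-lo (blue) libraries, with a linear axis from 0 in each panel. HoxA, HoxB and HoxC were higher in every QZ1-hi library than in any QZ1-lo library, while HoxD peaked in replicate 2 of each group (1.97 and 1.46 CPM), as did the mesothelial list (208 and 27.5 CPM).

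Hox proteins bind DNA with cofactors of the TALE class, the Pbx proteins, which pair with them directly, and the Meis and Pknox (Prep) proteins, which bind Pbx. All 9 cofactor genes were tested, and by edgeR 3 were higher in QZ1-hi and 0 lower, beside 9.88% and 8.21% of all genes tested. At an unadjusted p under 0.05 edgeR had 2 lower, and 1 was lower by DESeq2 and 0 by limma-voom. Meis1, a partner of Hox proteins in blood and vessel development, was at 20.2, 20.8, 30.0 and 17.0 CPM in QZ1-hi and 1.07, 3.98, 1.12 and 1.19 CPM in QZ1-lo. The groups did not overlap, the log2 fold change was 3.59 ± 0.43 (SE), edgeR adjusted p 0.000394, and the call held in 16 of 16 alternatives.

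Meis2 was at 10.5, 7.16, 18.4 and 6.19 CPM in QZ1-hi and 0.119, 2.44, 2.75 and 0.327 CPM in QZ1-lo. It rose by 2.91 ± 0.76 (log2, SE; edgeR adjusted p 0.0207), and without QZ1-hi replicate 3 the adjusted p was 0.0649. Pknox2 was at 5.29, 5.43, 11.4 and 5.36 CPM in QZ1-hi and 0.179, 0.894, 2.06 and 0 CPM in QZ1-lo. It rose by 3.13 ± 0.86 (log2, SE; edgeR adjusted p 0.0261), and the adjusted p was 0.0802, 0.0585 and 0.0598 without QZ1-hi replicate 3, QZ1-lo replicate 1 and QZ1-lo replicate 2. For each of the 3 genes the groups did not overlap, QZ1-hi being above.

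The other cofactors did not pass. Log2 fold changes were -0.35 for Pbx2, -0.23 for Pbx3 and -0.74 for Meis3. Pknox1 had a log2 fold change of 0.33, and -0.14 with scaling by library size only, which lowered the median over all genes from 0.02 to -0.44. Pbx4 was low, at 0 to 0.381 CPM in QZ1-hi and 0.894 to 2.74 CPM in QZ1-lo. Its groups did not overlap, and its log2 fold change of -2.54 ± 0.83 (SE) had an adjusted p of 0.0576 by edgeR and 0.00744 by DESeq2.

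**Figure D4:**
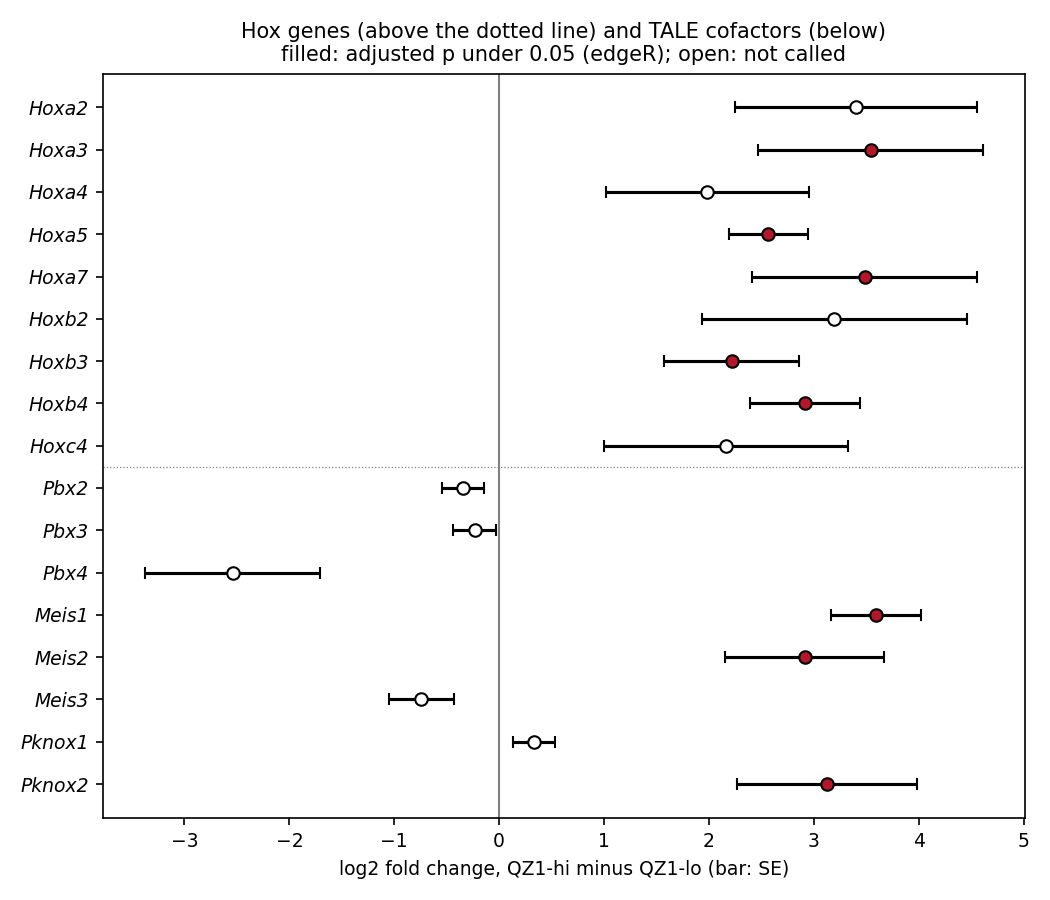
Log2 fold change of QZ1-hi minus QZ1-lo with its SE for the 9 tested Hox genes (above the dotted line) and 8 of the 9 TALE cofactor genes (below), filled where the edgeR adjusted p was under 0.05. The Hox values ran from 1.99 (Hoxa4) to 3.54 (Hoxa3), and of the cofactors Meis1, Meis2 and Pknox2 lay in that range or just above it while Pbx2, Pbx3 and Pknox1 lay near 0.

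Polycomb complexes hold Hox genes silent, and Trithorax-type enzymes keep them active. All 35 listed chromatin regulator genes were tested, which besides these complexes included demethylase genes and an insulator gene. Their median log2 fold change was -0.08 (range -0.56 to 0.54) beside 0.02 over all genes. By edgeR 0 were higher, also at an unadjusted p under 0.05 and by DESeq2 and limma-voom, and 1 was lower, while 8.21% of all genes tested were called lower. That gene was Dot1l, the H3K79 methyltransferase, at 43.1, 33.9, 35.8 and 38.0 CPM in QZ1-hi and 64.0, 48.9, 55.1 and 55.0 CPM in QZ1-lo. The groups did not overlap, and it fell by 0.56 ± 0.13 on the log2 scale (SE; edgeR adjusted p 0.00974). None of the 11 genes of Polycomb complex PRC2 was called. Its alternative catalytic subunits Ezh1 and Ezh2 had log2 fold changes of 0.11 ± 0.13 and -0.01 ± 0.18 (SE, edgeR adjusted p 0.639 and 0.978). Kmt2a (MLL1), which maintains Hox expression, had -0.11 ± 0.14 (SE, edgeR adjusted p 0.701).

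The activators of Hox clusters in the embryo were at 0 or were not called. The Cdx genes Cdx1, Cdx2 and Cdx4, which drive middle and posterior Hox genes, were at 0 in all libraries. The retinoic acid receptors Rara, Rarb and Rarg had log2 fold changes of 0.24, -0.70 and 0.42, and Gdf11, a trunk-to-tail signal, had 0.32. By edgeR 0 of these 4 were called, 1 (Rarg) passed at an unadjusted p under 0.05, and DESeq2 and limma-voom called 0.

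Of 18 listed non-coding genes within the clusters, 10 were rows of the table, 6 of them miRNA loci, and the other 8, among them Hoxb3os and Hotairm1, were not analysed here. Counts were 0 throughout for 8 of the 10, which were Hotair, Hoxaas3 and the loci of Mir10a, Mir10b, Mir196a-1, Mir196a-2, Mir196b and Mir615. Mature miRNA was not measured in these total RNA libraries. Hoxa11os had 3 counts in QZ1-lo replicate 3 and Hoxd3os1 had 3 counts in QZ1-hi replicate 4. Antisense genes cover exon bases of some members, 52.9% of Hoxb3 and 27.3% of Hoxb2 (both Hoxb3os), 25.4% of Hoxa3 and 20.4% of Hoxa7. Whether counting used strand was not given in the sources used here, so reads of these pairs cannot be told apart, and Hoxa5 and Hoxb4 had no such overlap.

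Among genes just outside the clusters none was called higher. The table held 9 of them, of which 6 were tested. By edgeR 0 were higher (also at an unadjusted p under 0.05 and by DESeq2 and limma-voom) and 2 were lower. Over all genes tested 8.21% were called lower. Calcoco1, beside HoxC, was at 35.0 to 44.0 CPM in QZ1-hi and 52.3 to 63.7 CPM in QZ1-lo, a fall by 0.59 ± 0.12 on the log2 scale (SE; edgeR adjusted p 0.00639). Ttll6, a tubulin polyglutamylase of cilia that lies beside HoxB, was at 0.762 to 4.34 CPM in QZ1-hi and 7.83 to 22.2 CPM in QZ1-lo, a fall by 2.48 ± 0.53 (SE; edgeR adjusted p 0.00727), and the ciliated list fell with it. Skap2 beside HoxA had a log2 fold change of 0.31, Smug1 beside HoxC -0.59, and Mtx2 and Lnpk beside HoxD 0.20 and -0.22. Evx1 and Evx2, the homeobox genes at the posterior ends of HoxA and HoxD, were at 0 in every library, like the group 13 genes Hoxa13 and Hoxd13 they adjoin.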

How the data were processed

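RNA from the sorted cells was made into stranded total RNA libraries with the SMARTer kit and sequenced on a NextSeq500. The authors deposited a table of raw counts per gene for all 8 libraries, on mm10, with DESeq2 named in the submitters' processing notes, and the aligner, annotation and strand setting are not given in the sources used here. Counts were used as deposited. Genes with at least 10 counts (scaled to library size) in 4 libraries and 15 in all were kept (15583), scaled by the trimmed mean of M values (factors 0.660 to 1.35) and tested with edgeR 4.0.16 (R 4.3.3), quasi-likelihood F test, with Benjamini-Hochberg adjustment over all genes tested and a threshold of 0.05. The SE was taken as the size of the log2 fold change over the root of the F statistic. Single values were compared with a two-sided exact permutation test over 70 assignments of the libraries, which cannot give less than 0.0286. The test was also run on counts simulated from the mean levels and edgeR's own fitted dispersions, with all libraries independent. Such counts cannot show how a pairing by mouse would move the calls.

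Levels are CPM after that scaling, or RPKM, which divides by the exon length of GENCODE M21. Positions and promoter windows are from RefSeq GRCm38.p6. The genes named are the symbols Hox a to d with a number, the listed cofactors, neighbors, inducers and in-cluster RNAs, chromatin regulators that pass the test, and cell type markers that move with a result. Ezh1, Ezh2 and Kmt2a were named outside that rule, after their values were seen. Some listed genes are not reported here. Members and lists were chosen with earlier results of these data known. Alternatives were DESeq2 1.42.0, limma 3.58.1 with voom quality weights, other scalings and filters, robust shrinkage, removal of mitochondrial and ribosomal RNA genes, and leaving out each library.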

Additional observations from a re-analysis of the deposited data

Results flagged for a closer look

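Of 83 groups of 4 libraries examined (Hox genes, cofactors and summed levels), 18 held a library far from the other 3, where chance flags about 1 in 20 groups. Low counts with ties at 0 make such gaps easy to reach.

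QZ1-lo replicate 2 stood above the other QZ1-lo libraries in Hoxa3 (1.30 CPM), Hoxb2 (0.894 CPM, the others at 0), Hoxd3 (0.813 CPM), Hoxd8 (0.650 CPM), summed HoxD (1.46 CPM) and Meis1 (3.98 CPM against 1.07 to 1.19 CPM). QZ1-lo replicate 3 stood above the others in Hoxa2 (0.940 CPM) and in the endothelial sum (349 CPM against 111 to 150 CPM). Hoxb6 was at 0.149 CPM in QZ1-lo replicate 1 and at 0 in the other 3.

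QZ1-hi replicate 2 stood above the other QZ1-hi libraries in Hoxc6 (1.18 CPM), summed HoxC (3.01 CPM), summed HoxD (1.97 CPM) and the mesothelial sum (208 CPM against 29.6 to 55.6 CPM). QZ1-hi replicate 1 was apart for Hoxa6 (1.69 CPM, high) and Meis3 (2.88 CPM, low). QZ1-hi replicate 3 was apart for Pknox2 (11.4 CPM, high), and QZ1-hi replicate 4 for the pericyte sum (59.5 CPM, low) and the smooth muscle sum (24.9 CPM, low).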

How the results depend on the processing

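The count of 5 Hox genes higher in QZ1-hi was 8 with limma-voom and 1 when at least 10 counts were required in every library, a filter that left only Hoxa5 among the Hox genes. It ranged from 2 to 5 when single libraries were left out, and the 2 called throughout were Hoxa5 and Hoxb4. It was 2 without QZ1-hi replicate 1, 2 or 4 or QZ1-lo replicate 1, and 3 without QZ1-hi replicate 3 or QZ1-lo replicate 4. No Hox gene was lower in any alternative, and no tested Hox gene changed direction. Scaling by library size only put the median change over all genes at -0.44 (log2), with 883 genes higher and 2509 lower against 1540 and 1280, and called 5 cofactors and 4 chromatin regulators against 3 and 1. The cofactor count was 1 with at least 10 counts in every library and 1 to 3 when libraries were left out in turn, 1 without QZ1-hi replicate 3. The chromatin regulator count was 1 to 2 over those fits, 2 without QZ1-hi replicate 1. Pknox1 was at -0.14 with library size only against 0.33, a move as large as that of the median over all genes. No paired analysis was possible because the labels carry neither replicate numbers nor a mouse for each library, so how a pairing would move the calls is not known. Depth limits the posterior genes to statements below the floor of 3 counts a library.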
